A study of Mus musculus with 6 samples.

Results

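The proteasome subunit genes were taken as the protein-coding genes whose name starts with Psma, Psmb, Psmc, Psmd, Psme, Psmf or Psmg followed by a digit in the GENCODE vM1 annotation of mm9. Their members in the data are the intervals of the deposited ATAC-seq count table whose midpoint lies within 1 kb of an annotated transcription start site (TSS) of these genes. There are 101 such intervals of 39768 in all, at 46 of the 50 genes that the names match. ATAC-seq uses the Tn5 transposase to cut exposed DNA, so the number of fragment ends in an interval measures how accessible its chromatin is. By their labels the libraries come from 50000 nuclei each of the tibialis anterior (TA) muscle of mice aged 7 weeks, whereas the methods of the study describe nuclei from hind limb muscles. The strain is C57BL/6 in the labels and C57BL/6N in the methods. All mice were flox/flox for both H2A.Z-1 and H2A.Z-2, the genes of the histone variant H2A.Z. The 3 CTL libraries, labelled WT, are from mice without the HSA CRE transgene and the other 3 are from mice that carry it and are called dKO-labelled libraries here, after their label H2A.Z dKO. HSA CRE is driven by a promoter active in post-mitotic skeletal muscle cells, so the nuclei of other cells in the muscle keep their floxed alleles. The labels do not say which mouse each library came from, so p-values measure the spread between these libraries.

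The 26S proteasome degrades proteins that carry ubiquitin chains. Its barrel-shaped core particle is built of rings of alpha and beta subunits, of which only some beta subunits cut peptide bonds, and the regulatory particle on its ends consists of a base, whose ATPases unfold the substrate, and a lid that removes ubiquitin. In skeletal muscle the ubiquitin-proteasome pathway is known for the breakdown of myofibrillar proteins during atrophy.

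Sequences of mm9 are shown first, since shared letters in the promoters are what the gene names did not select for. Those of Psmd9 and Psmc4, the genes of the intervals with the smallest unadjusted p, and of Psme2, the gene with the most accessible lead interval, run from 250 bases upstream of the TSS to 30 bases downstream, in the direction of the gene. Capitals mark matches to any of 6 motifs that were searched on both strands: TGACNNNGC (the core of the antioxidant response element, also bound by NFE2L1, a regulator of proteasome genes), CCAAT (the NF-Y box), CCGGAAG (an ETS site), GGGCGG (the GC box), TATAAA (the TATA box) and GCGCATGC (a site of NRF1, nuclear respiratory factor 1). Matches of different motifs may overlap, as those of the response element core and a GC box do in the Psmd9 promoter.
Psmc4 at chr7:28835091-28835370, minus strand: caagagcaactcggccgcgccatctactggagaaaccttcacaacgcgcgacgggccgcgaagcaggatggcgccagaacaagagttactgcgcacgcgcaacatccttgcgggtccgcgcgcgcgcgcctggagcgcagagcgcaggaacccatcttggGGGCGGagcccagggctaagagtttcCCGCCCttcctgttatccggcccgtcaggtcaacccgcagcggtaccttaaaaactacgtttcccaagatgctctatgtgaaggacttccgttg
Psmd9 at chr5:123677949-123678228, plus strand: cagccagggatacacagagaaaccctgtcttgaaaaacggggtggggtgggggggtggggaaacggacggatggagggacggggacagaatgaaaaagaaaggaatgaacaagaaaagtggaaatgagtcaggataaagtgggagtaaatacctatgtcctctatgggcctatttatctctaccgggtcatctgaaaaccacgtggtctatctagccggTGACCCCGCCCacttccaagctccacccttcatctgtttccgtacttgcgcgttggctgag
Psme2 at chr14:56209921-56210200, minus strand: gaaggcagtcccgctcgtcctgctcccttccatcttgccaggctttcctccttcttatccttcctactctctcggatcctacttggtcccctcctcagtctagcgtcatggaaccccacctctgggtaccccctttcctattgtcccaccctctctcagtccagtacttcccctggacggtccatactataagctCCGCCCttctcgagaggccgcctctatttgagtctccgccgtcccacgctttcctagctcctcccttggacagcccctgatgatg
The Psmd9 stretch holds the whole of the upstream Psmd9 interval and ends before its lead interval, which lies in the 5′ UTR. The Psme2 stretch holds all of the upstream side of the lead interval of that gene, and the Psmc4 stretch all but the outermost bases.

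For the count of motifs, each gene was represented by the window from 250 bases before to 50 after the TSS nearest to its lead interval, which is the interval of the gene with the highest mean RPKM over the 6 libraries. An ETS match was found in 17 of the 46 windows, or 37.0% (95% Wilson interval 24.5% to 51.4%), against 19.7% of the 10942 windows of all protein-coding genes with an interval. The genes of the regulatory particle held 11 of these 17 windows, and the 13 genes outside both particles held 5 (38.5% of them). Of the 17 regulatory genes, 11 had the ETS letters (64.7%, 41.3% to 82.7%), with 4 of 6 base ATPases, 2 of 3 other base subunits and 5 of 8 lid subunits. Of the 16 core particle genes only Psma6 had them (6.25%, 1.11% to 28.3%). This split was chosen after its values were seen and was not tested. It was 11 of 17 and 1 of 16 also when the lead interval itself was searched. With CGGAAG, also chosen afterwards, it was 14 of 17 against 5 of 16, with 33.8% of all windows. The regulatory particle matches, each read on the strand that carries the letters, are printed with 10 bases on either side and the match in capitals.
Psmc1 at chr12:101348374-101348400, minus strand: atcgccaccgCCGGAAGtgcatccacc
Psmc2 at chr5:21290999-21291025, minus strand: gagccccatcCCGGAAGtgctcactgg
Psmc3 at chr2:90894109-90894135, minus strand: tgctgcacaaCCGGAAGaggcgggagg
Psmc6 at chr14:45949389-45949415, plus strand: ggcgggccagCCGGAAGgggcggagcc
Psmd11 at chr11:80242096-80242122, minus strand: aaacacacacCCGGAAGacccgccctc
Psmd12 at chr11:107340815-107340841, minus strand: gtcactcgcaCCGGAAGtcgcccgctc
Psmd13 at chr7:148068277-148068303, plus strand: gcccgcggtgCCGGAAGtgagcgagca
Psmd2 at chr16:20651689-20651715, minus strand: gtcctccagaCCGGAAGcgccctgcgg
Psmd4 at chr3:94846645-94846671, minus strand: tacagctgttCCGGAAGctgctgcgaa
Psmd6 at chr14:14953488-14953514, minus strand: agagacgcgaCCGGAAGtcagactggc
Psmd7 at chr8:110112339-110112365, minus strand: ggcggtcaaaCCGGAAGgggaggtgct
The matches began at positions from -187, in Psmd4, to 28, in Psmd7 and Psmd12, counted from the TSS at 1. Of all 20 ETS matches in proteasome windows 55.0% lay within 50 bases of the TSS, against 56.3% of the 2639 in all windows.

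**Figure D1:**
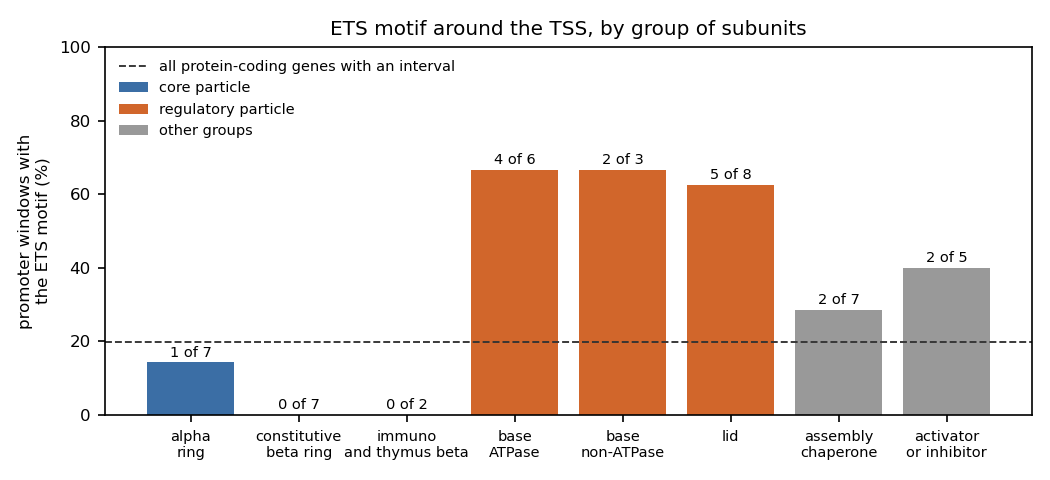
Share of promoter windows (in %) that hold the ETS motif on either strand, by group of subunits, with the number of genes above each bar. The dashed line is the 19.7% of all protein-coding genes with an interval, and the groups of the regulatory particle (4 of 6, 2 of 3 and 5 of 8 genes) lie above it while those of the core particle (1 of 7, 0 of 7 and 0 of 2) lie below it. The assembly chaperones (2 of 7) and the activators and inhibitor (2 of 5) also lie above it.

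The antioxidant response element core was about as common as elsewhere, in 7 of 46 windows (15.2%, 95% Wilson interval 7.57% to 28.2%) against 15.1% of all. In the lead interval itself it was found in 17.4% (all genes, 14.2%). Of the 7 genes only Psmb6 and Psmc6 had it there too. The window held it in 3 of 7 constitutive beta and 0 of 7 alpha genes, and the lead interval in 1 and 2. The 7 include the catalytic beta subunits Psmb5 and Psmb6. The matches in all 7 windows are given in the same way.
Psmb2 at chr4:126354863-126354891, plus strand: gccgcgccagTGACTGGGCcgtcgcgcgt
Psmb5 at chr14:55236861-55236889, minus strand: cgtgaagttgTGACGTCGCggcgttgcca
Psmb6 at chr11:70338840-70338868, plus strand: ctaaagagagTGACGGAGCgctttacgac
Psmc6 at chr14:45949262-45949290, minus strand: gagcaatgccTGACTTAGCtactggctgg
Psmd12 at chr11:107340585-107340613, minus strand: ggggcaaatgTGACACAGCagaacatctc
Psmd7 at chr8:110112472-110112500, plus strand: cttaggctatTGACGAAGCttggcattga
Psmd9 at chr5:123678158-123678186, plus strand: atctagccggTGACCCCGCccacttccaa
The other motifs were in 34.8% (CCAAT), 58.7% (GGGCGG), 8.70% (TATAAA) and 8.70% (GCGCATGC) of the proteasome windows and in 38.4%, 69.6%, 5.53% and 5.71% of all windows. In the lead interval itself, TATAAA was found in 2.17% (all genes, 2.90%) and GCGCATGC in 4.35% (all genes, 4.51%). Median GC content was 58.3% and 62.3%. These intervals cover counting error only, and a match of letters is not a measured binding site.

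The libraries held 3520008 to 6117245 counts in all intervals, of which members took 0.315% to 0.324% in CTL and 0.307% to 0.325% in the dKO-labelled libraries. Counts of members ranged from 7 to 734 per library with a median of 102. In the segment of H2afz between its loxP sites, exons 2 to 4 at chr3:137528097-137529104, 2 intervals held 79, 69 and 33 counts in CTL replicates 1, 2 and 3 against 57, 52 and 64 in the dKO-labelled libraries, which the spread covers (exact permutation test, two-sided p = 0.6, smallest possible 0.1). The segment of H2afv, exons 4 to 5 at chr11:6327232-6329228, holds 0 intervals and gives no check. The H2afz values of the groups overlap, in a design too small to pass 0.05. The study examined the loss of H2A.Z with other assays, which are not analysed here, and "dKO-labelled" only names the group by its label. dKO replicate 1 stood apart, with 75.2% of its counts in promoter intervals of protein-coding genes against 71.3% to 73.1% in the other libraries. Of 10 fibre genes, 7 had an interval, Acta1, Ckm and Ttn among them, while Myh1, Mylpf and Atp2a1 had none. None of the immune markers had one, Ptprc and Csf1r included.

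Nearly all proteasome genes had an accessible promoter in these nuclei. An interval was found at 46 of 50 (92.0%), against 49.2% of all 22238 protein-coding genes. The genes without one are Psma8 and Psmb11, known as the testis-specific alpha and the thymus-specific beta subunit, the immunoproteasome subunit Psmb10, and Psme2b-ps. Psmb10 has an interval within 1 kb of its TSS only if any base rather than the midpoint is counted. Cytosolic ribosomal protein genes had an interval at 89.0% of 82 genes and nuclear respiratory chain genes at 84.9% of 86. Of the 46 genes, 14 had 1 interval, 17 had 2, 8 had 3, 6 had 4 and Psmb3 had 5. Psmc3ip, a cofactor of meiotic recombination, matches the prefix only and is no subunit.

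Most lead intervals sat on the TSS. The midpoint was within 100 bp of the TSS in 35 of 46 (76.1%), against 61.8% of all protein-coding genes with an interval, and upstream of it in 38 (82.6%, against 70.5%). Ribosomal protein genes had 75.3% within 100 bp and 76.7% upstream, and respiratory chain genes 71.2% and 63.0%. Lead intervals had a median width of 254 bp (all genes, 257 bp), and members overall were 15 to 649 bp wide. Of the 101 members, 56 had their midpoint outside the gene, 20 in a UTR, 7 in a coding exon, 3 in an exon of a transcript without coding sequence and 15 in an intron. A total of 21 intervals at 9 genes share bases with another member, so that the fragment ends there count in both. At 10 genes another protein-coding TSS lies within 1 kb, and these counts cannot be assigned to one gene of the pair: Psma2 with Mrpl32, Psma4 with AY074887, Psma7 with Ss18l1, Psmb9 with Tap1, Psmc2 with Dnajc2, Psmc5 with Ftsj3, Psmd10 with Atg4a, Psmd13 with Sirt3, Psme2 with Rnf31 and Psmg2 with Cep76. The authors listed 39 of the 46 lead intervals (84.8%) for both groups, against 66.6% of the lead intervals of all protein-coding genes, and 21 of the 55 other intervals (38.2%, against 39.6%).

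**Figure D2:**
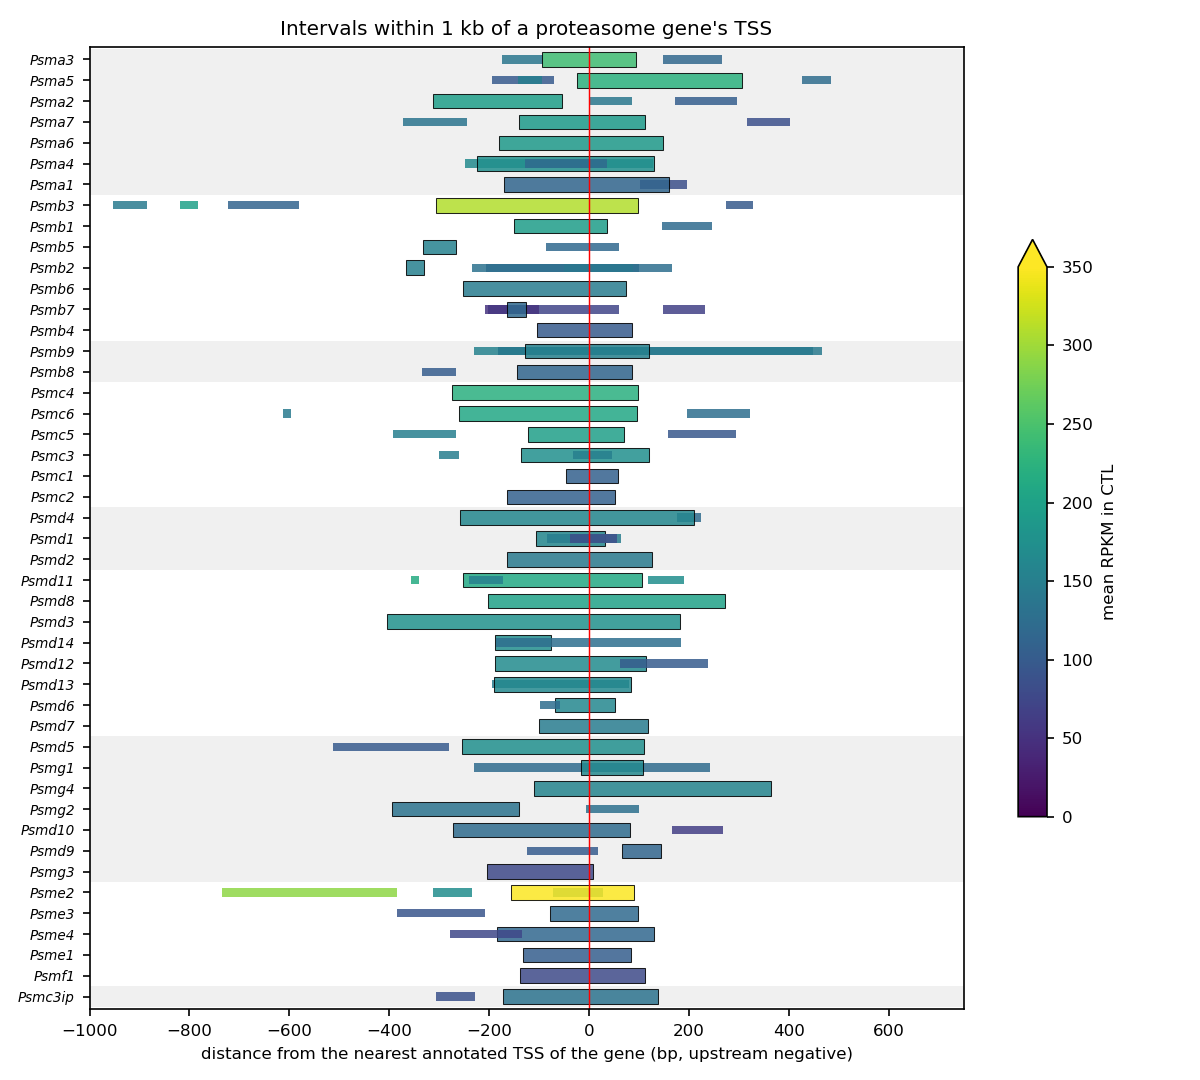
Position of the 101 intervals relative to the nearest annotated TSS of the gene (bp, upstream negative), 1 row per gene, coloured by mean RPKM in the 3 CTL libraries. Lead intervals are tall and outlined, genes follow the order of the subunit groups, and 35 of the 46 lead intervals have their midpoint within 100 bp of the TSS.

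Accessibility was compared between genes as RPKM, the counts divided by the width of the interval in kb and by the library's total over all intervals, in the usual RPKM scaling. The median lead interval of the proteasome genes had 160 ± 3.61 RPKM (SD, n = 3) in CTL. Lead intervals of ribosomal protein genes had 167 ± 3.98, of the respiratory chain 161 ± 2.48 and of all protein-coding genes 151 ± 0.852 RPKM. In the dKO-labelled libraries the proteasome value was 156 ± 7.91 RPKM, which overlaps CTL. By particle, the CTL medians were 170 ± 8.03 RPKM for the 16 core genes, 171 ± 6.77 for the 17 regulatory genes and 126 ± 9.90 for the 13 others. Genes with the ETS letters had 153 ± 10.3 and genes without them 165 ± 3.78 RPKM.

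The most accessible lead intervals were those of Psme2 (348 ± 25.4 RPKM in CTL, higher than 98.6% of all genes' lead intervals), Psmb3 (310 ± 11), Psma3 (243 ± 31.9), Psma5 (224 ± 10.7) and Psmc4 (222 ± 7.36). At the low end were Psmg3 (77.8 ± 3.56), Psmf1 (79.1 ± 11.3) and Psmb4 (97.6 ± 5.68). In this order the CTL libraries of neighbouring genes did not overlap in 4 of 45 pairs: Psme2 over Psmb3, Psmb3 over Psma3, Psma6 over Psmd3 and Psmb4 over Psmf1. All other neighbours overlapped, so the order in the middle is not resolved. Interval width enters these values.

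**Figure D3:**
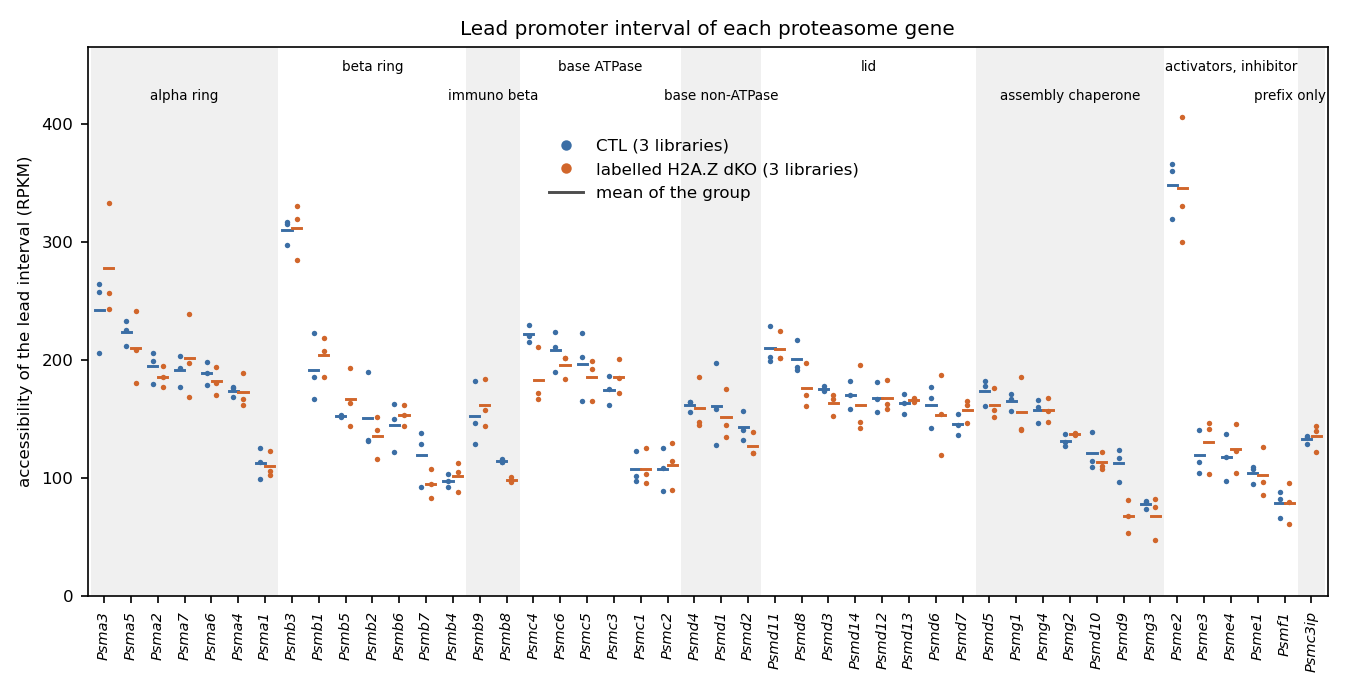
RPKM of the lead interval of each of the 46 genes, with points for the 3 CTL and the 3 dKO-labelled libraries and a line at the mean of each group, ordered by subunit group and CTL level. Psme2 and Psmb3 stand above the rest at 348 and 310 RPKM in CTL, and the points of the groups are apart at Psmd9, Psmc4, Psmb8 and Psmd3 but overlap at the other genes.

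The comparison between groups asked whether promoters of these genes lose or gain accessibility in muscle labelled as lacking H2A.Z. No proteasome interval passed the test: by the quasi-likelihood test of edgeR, 0 of 101 were below 0.05 after Benjamini-Hochberg adjustment over all 39768 intervals, where the background is 0% of all intervals. The smallest adjusted p of a member was 0.972. At an unadjusted p under 0.05, 1 member was higher (0.990% of members, background 2.64%) and 2 were lower (1.98%, background 2.31%). DESeq2 gave 0 at adjusted and 1 at unadjusted p, and limma voom 0 and 2. Of all 39768 intervals, 756 and 1996 had an unadjusted p under 0.05 in these 2 fits. The unadjusted count of 3 was 5 without CTL replicate 2 and 1 without CTL replicate 1 or 3. Over all intervals it was 1675 without CTL replicate 2, 1955 without replicate 1 and 1265 without replicate 3. The median log2 fold change was 0.0095 over members and 0.012 over all intervals, and 54.5% of members and 52.5% of all intervals were above 0. For members it was -0.043 without dKO replicate 1 and 0.045 without replicate 2. The median over all intervals at protein-coding promoters went from 0.011 to -0.041 without dKO replicate 1, a shift like that of the members. The precision allows bounds to be given for single intervals, since the 95% confidence interval of the fold change lay within 2-fold in either direction for 99 of the 101 members and within 1.5-fold for 72, of which 41 were among the 46 lead intervals. Of members these are 98.0% and 71.3%. Over all intervals the shares were 91.4% and 49.6%, and over intervals at protein-coding promoters 96.4% and 66.0%. Within 1.5-fold lay 89.1% of the 46 lead intervals and 73.5% of the lead intervals of all protein-coding genes.

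**Figure D4:**
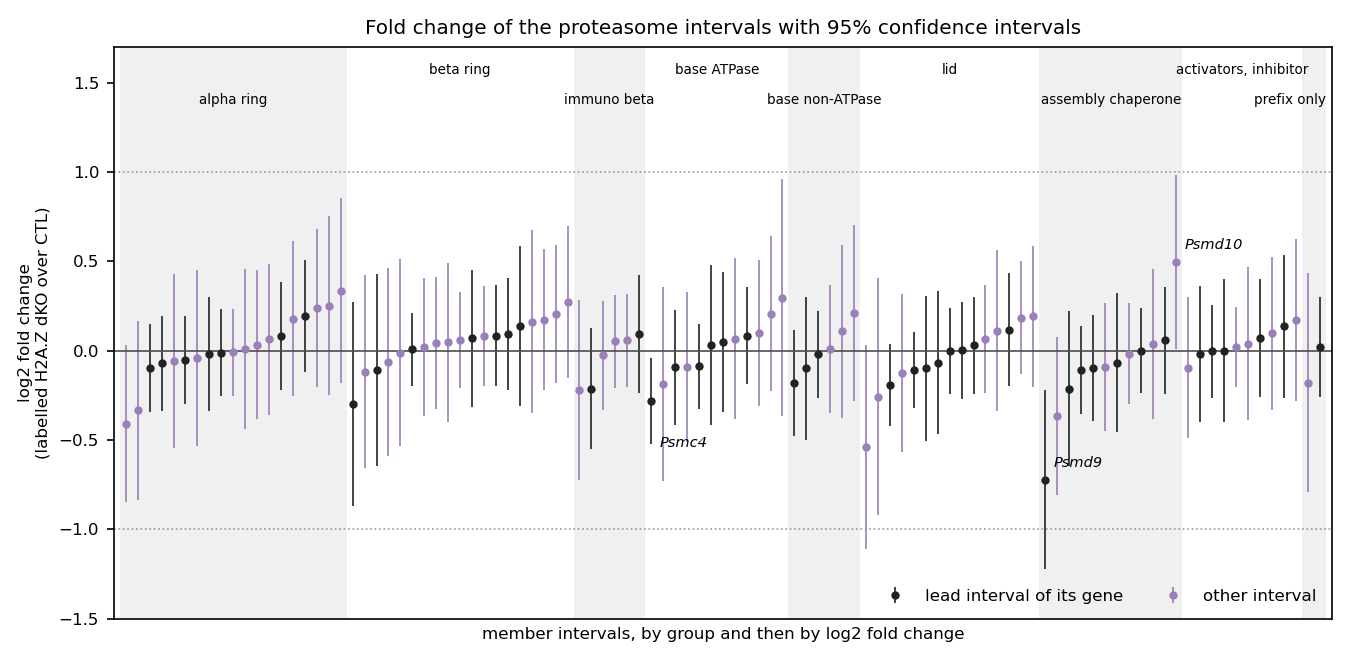
Log2 fold change of the 101 members (dKO-labelled libraries over CTL, edgeR) with 95% confidence intervals, black for lead intervals and purple for others, dotted lines at 2-fold. The 3 named intervals have an unadjusted p under 0.05, 1 higher and 2 lower, and none passed after adjustment.

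Values of the 3 libraries in each group did not overlap for 2 members that were higher (1.98%, background 5.22%) and 6 that were lower (5.94%, background 5.63%) in the dKO-labelled libraries. Higher were intervals of Psmb1 and Psmd10, and lower were intervals of Psma5 (a pair that shares bases), Psmb8, Psmc4, Psmd3 and Psmd9. Both shares are near or below the background.

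The alpha ring, whose subunits gate the entry to the core, had 19 intervals at 7 genes, 9 with a positive and 10 with a negative log2 fold change and a median of -0.0094. None passed the test in either direction. Its lead intervals had 112 to 243 RPKM in CTL. At the top, the Psma3 interval at chr12:72075575-72075764 (Peak_27591) had 258, 264 and 206 RPKM in CTL replicates 1, 2 and 3 against 333, 257 and 243 in the dKO-labelled libraries. Replicate 1 was the highest library, and the groups overlap, with a log2 fold change of 0.20 (SE 0.15, 95% CI -0.12 to 0.51) that was 0.0083 without that library and 0.10 without CTL replicate 3. Upstream of it, Peak_27590 had 144, 121 and 149 RPKM in CTL against 245, 150 and 119 in the other group. Its log2 fold change of 0.34 (SE 0.25) was -0.060 without dKO replicate 1. The lowest lead interval was that of Psma1 (Peak_16401), with 98.8, 125 and 113 RPKM against 123, 106 and 102 and a log2 fold change of -0.019 (SE 0.15). Psma5 had lower values in its upstream interval, Peak_6728 at chr3:108059649-108059773, where CTL libraries had 109, 95.8 and 93.9 RPKM and the dKO-labelled libraries 63.2, 81.5 and 83.5. All 3 lay below CTL, with a log2 fold change of -0.41 (SE 0.21, edgeR, unadjusted p = 0.0679, adjusted p = 0.972). The lead interval of Psma5 had a log2 fold change of -0.097. Psma2, Psma4, Psma6 and Psma7 completed the ring, with lead log2 fold changes between -0.071 and 0.080.

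The constitutive beta ring had 19 intervals at 7 genes, 14 positive and 5 negative, with a median of 0.061 and none past the test. Its catalytic subunits are Psmb6, Psmb7 and Psmb5, which carry the caspase-like, trypsin-like and chymotrypsin-like activities. The Psmb6 lead interval (chr11:70338617-70338943, Peak_24978) had 150, 122 and 163 RPKM in CTL against 154, 144 and 162 in the dKO-labelled libraries. That range is shared, with a log2 fold change of 0.084 (SE 0.14, 95% CI -0.20 to 0.37). For Psmb5, the lead interval was a 67-bp flank upstream of the TSS (chr14:55237117-55237184, Peak_30747), with 154, 152 and 153 RPKM against 193, 144 and 163. CTL libraries were close together and the other group spread on either side of them (log2 fold change 0.14, SE 0.21). Psmb7 had its lead interval in 37 bp (chr2:38499734-38499771, Peak_3265), with 92.8, 128 and 138 RPKM in CTL against 82.8, 95 and 108 in the other group, from 16 to 22 counts a library. The groups overlap, and at this depth the log2 fold change of -0.30 (SE 0.28, 95% CI -0.87 to 0.27) does not separate the groups. Of the structural subunits, Psmb3 was the most accessible. Its lead interval (chr11:97564407-97564811, Peak_25863) had 297, 317 and 315 RPKM in CTL against 285, 319 and 331 in the dKO-labelled libraries, a log2 fold change of 0.0073 (SE 0.10, 95% CI -0.20 to 0.21), the narrowest bound of the ring. The least accessible, Psmb4 (Peak_6384), had 97.1, 92.3 and 104 RPKM against 113, 105 and 88.2 (log2 fold change 0.071, SE 0.18). Downstream of the Psmb1 TSS, Peak_34767 (chr17:15634993-15635093) had 123, 114 and 125 RPKM in CTL against 169, 136 and 129 in the other group. All 3 libraries were above CTL, replicate 1 by the most, with a log2 fold change of 0.27 (SE 0.20, edgeR adjusted p = 0.972) that was 0.12 without it. Psmb1 and Psmb2 had lead log2 fold changes of 0.093 and -0.11.

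The immunoproteasome subunits Psmb8 and Psmb9 replace catalytic beta subunits in immune cells and under interferon-gamma. They had 6 intervals, 3 positive and 3 negative, none past the test. At Psmb8 the lead interval (chr17:34334522-34334753, Peak_35424) had 114, 116 and 113 RPKM in CTL against 98.0, 97.0 and 101 in the dKO-labelled libraries. Values were tight within each group and lower in all 3 of the latter, yet the modelled log2 fold change of -0.21 (SE 0.16, 95% CI -0.55 to 0.13) had an unadjusted p of 0.206 in edgeR, whose spread is shared across intervals. The Psmb9 lead interval (Peak_35423), which also lies at the TSS of Tap1, had 129, 182 and 147 RPKM against 184, 157 and 144, with overlap and a log2 fold change of 0.094 (SE 0.16). Endothelial markers had lower sums in the dKO-labelled libraries. The 8 intervals of 5 of 7 endothelial genes summed to 71.3 to 82.2 CPM in CTL and to 56.5 to 66.1 in the other group. Of the 8, 7 had a negative log2 fold change and that of Tek was 0.17, where 52.5% of all intervals were positive. The 2 of Cdh5 were lower at an unadjusted p under 0.05 (background 2.31%) but had an adjusted p of 0.972 in edgeR. The sums of fibroblast markers overlap, with 77.3 to 95 CPM in CTL and 92.2 to 104 in the other group and 5 of 6 intervals positive. Of the satellite cell markers only Cdh15 had intervals, 2 of 2 positive, with 27.9 to 45.9 and 41.3 to 51.1 CPM. Pecam1 and Emcn had no interval. The fibre genes had 318 to 427 CPM in CTL and 323 to 438 in the other group, with 8 of 15 intervals positive and 13 of 15 without dKO replicate 1. Fewer nuclei of a type and less accessible chromatin per nucleus cannot be told apart in bulk libraries, and the part of cell makeup in the Psmb8 value was not tested.

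The base ATPases, Psmc1 to Psmc6, had 12 intervals, 7 positive and 5 negative, with a median of 0.041. Psmc4 was the member with the second smallest p. Its single interval (chr7:28835022-28835394, Peak_14876), of the promoter printed above, had 523, 371 and 288 counts in CTL replicates 1, 2 and 3, or 230, 215 and 220 RPKM. The dKO-labelled libraries had 167, 211 and 172 RPKM, each below the lowest CTL library, with replicate 2 nearest to it. The log2 fold change of -0.28 (SE 0.12, 95% CI -0.52 to -0.04) had an unadjusted p of 0.0243 and an adjusted p of 0.972, and the unadjusted p was under 0.05 in 9 of 13 alternative fits and up to 0.0951, without CTL replicate 1, in the others. By the mean of the 6 libraries the lowest was Psmc1 (Peak_28119), which had 97.2, 102 and 123 RPKM against 125, 95.4 and 103, with a log2 fold change of 0.033 (SE 0.22). Psmc2 was at the same level in CTL, with 125, 88.6 and 109 RPKM against 115, 90.1 and 129 (log2 fold change 0.049, SE 0.19). The lead intervals of Psmc2, Psmc3, Psmc5 and Psmc6 had log2 fold changes from -0.093 to 0.084.

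The other base subunits with a matching name, the scaffolds Psmd1 and Psmd2 and the ubiquitin receptor Psmd4, had 6 intervals, 3 in each direction, and negative values in all 3 lead intervals. Psmd4 (Peak_6391) had 156, 164 and 164 RPKM in CTL against 148, 145 and 186 in the dKO-labelled libraries. The groups overlap, and the log2 fold change was -0.020 (SE 0.12, 95% CI -0.26 to 0.22). Psmd2 (Peak_33520) had 157, 141 and 132 RPKM against 121, 121 and 139, with a log2 fold change of -0.18 (SE 0.14). Psmd1 had a lead log2 fold change of -0.099.

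The lid, whose Psmd14 is the deubiquitinase that frees the substrate from its ubiquitin chain, had 15 intervals at 8 genes, 7 positive and 8 negative, with a median of -0.00055 and none past the test. Its lead intervals had 145 to 210 RPKM in CTL, a narrower range than in either ring or among the base ATPases. Psmd11 (chr11:80241864-80242223, Peak_25375) had 203, 199 and 229 RPKM in CTL against 224, 201 and 202 in the dKO-labelled libraries, with a log2 fold change of -0.00055 (SE 0.12, 95% CI -0.24 to 0.24). Psmd7 (Peak_18742), the lowest, had 145, 155 and 137 RPKM against 166, 146 and 162 and a log2 fold change of 0.12 (SE 0.15). Both pairs of groups overlap. A 41-bp interval upstream of Psmd6 (chr14:14953556-14953597, Peak_30137) had 140, 94.8 and 139 RPKM in CTL against 66.4, 96.5 and 97.1 in the other group, from 16 to 35 counts a library. CTL replicate 2 overlaps the dKO-labelled libraries, the log2 fold change was -0.54 (SE 0.28, edgeR, unadjusted p = 0.0638), and the lead interval of Psmd6 beside it was at -0.098. Psmd3, Psmd8, Psmd12, Psmd13 and Psmd14 had lead log2 fold changes between -0.19 and 0.030.

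The assembly chaperones, which help the rings and the base to form and are not part of the finished particle, held the members with the most positive and the most negative log2 fold change. They had 12 intervals at 7 genes, 4 positive and 8 negative, with a median of -0.080. Before adjustment (p under 0.05), 1 was higher (background 2.64% of all intervals) and 1 lower (background 2.31%). Psmd9 had the smallest p of all members, in a 78-bp interval in the 5′ UTR (chr5:123678265-123678343, Peak_11535). It had 56, 35 and 34 counts in CTL, or 117, 96.9 and 124 RPKM, and 31, 19 and 32 counts in the dKO-labelled libraries, or 67.7, 53.5 and 81.7 RPKM. All 3 of the latter were below CTL, with a log2 fold change of -0.72 (SE 0.24, 95% CI -1.22 to -0.22, edgeR, unadjusted p = 0.0067, adjusted p = 0.972). The unadjusted p stayed under 0.05 in 13 of 13 alternative fits, at 0.00502 to 0.0423, and the smallest adjusted p among them was 0.511. Upstream, Peak_11534 had a log2 fold change of -0.37 (SE 0.21), with 112, 76.1 and 112 RPKM against 79.1, 78.9 and 74.3. Only CTL replicate 2 was as low as the other group there.

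Psmd10, also known as gankyrin, had the one member that was higher at an unadjusted p under 0.05, an interval in an intron with its midpoint 217 bp downstream of the TSS (chrX:137490960-137491062, Peak_39641). It had 35, 35 and 22 counts in CTL against 62, 37 and 43 in the dKO-labelled libraries, or 56.1, 74.1 and 61.3 RPKM against 103, 79.7 and 84.0. The groups do not overlap, and the log2 fold change was 0.50 (SE 0.24, 95% CI 0.0080 to 0.99, edgeR, unadjusted p = 0.0467, adjusted p = 0.972), with an unadjusted p under 0.05 in 6 of 13 alternative fits and up to 0.17, without dKO replicate 1, in the others. The lead interval of Psmd10, over the TSS, had a log2 fold change of -0.096. Psmd5 (Peak_3183) was the most accessible chaperone, with 182, 161 and 178 RPKM against 157, 176 and 152 (log2 fold change -0.11, SE 0.12). Psmg3 (Peak_12079) was the least, with 80.2, 79.5 and 73.7 RPKM against 47.4, 81.9 and 75.2, where replicate 1 alone was low (log2 fold change -0.21, SE 0.21, and -0.017 without that library). Psmg1, Psmg2 and Psmg4 had lead log2 fold changes from -0.068 to 0.058.

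The activators Psme1 to Psme4 and the inhibitor Psmf1, which bind the ends of the core, had 10 intervals, 7 positive and 3 negative, and none past the test. Psme2, a subunit of the interferon-inducible PA28 activator, had the most accessible lead interval (chr14:56209860-56210107, Peak_30789), with 319, 366 and 360 RPKM in CTL against 405, 300 and 331 in the dKO-labelled libraries. The latter enclose the CTL range, and the log2 fold change was -0.0032 (SE 0.13, 95% CI -0.26 to 0.26). Its partner in PA28, Psme1, had 104 ± 7.98 RPKM in CTL. Psmf1 (Peak_4606) had 66.4, 82.6 and 88.3 RPKM against 61.1, 79.7 and 96.0 and a log2 fold change of 0.00036 (SE 0.19). The prefix match Psmc3ip (Peak_26068) had 135, 129 and 135 RPKM against 122, 144 and 140 (log2 fold change 0.021, SE 0.14). Psme3 and Psme4 had lead log2 fold changes of 0.14 and 0.070.

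Lead intervals and the other members differed in how they varied across libraries, which was described without a test. Relative to the mean of the 6 libraries, the median log2 CPM of the 46 lead intervals was 0.0067, 0.042 and 0.027 in CTL and -0.0055, -0.074 and 0.018 in the dKO-labelled libraries. For the 55 other intervals the values were 0.0083, 0.041 and -0.054 in CTL and 0.15, -0.056 and -0.058 in the other group, where replicate 1 alone was high. All protein-coding promoters had the same pattern, with 0.018 in lead and 0.15 in other intervals of that library. It was strongest beyond 100 bp downstream of the TSS, where dKO replicate 1 was at 0.27 in 19 members and at 0.19 in 4660 promoter intervals. The median log2 fold change of the other members was 0.044 with that library and -0.040 without it, and that of lead intervals -0.015 and -0.064.

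**Figure D5:**
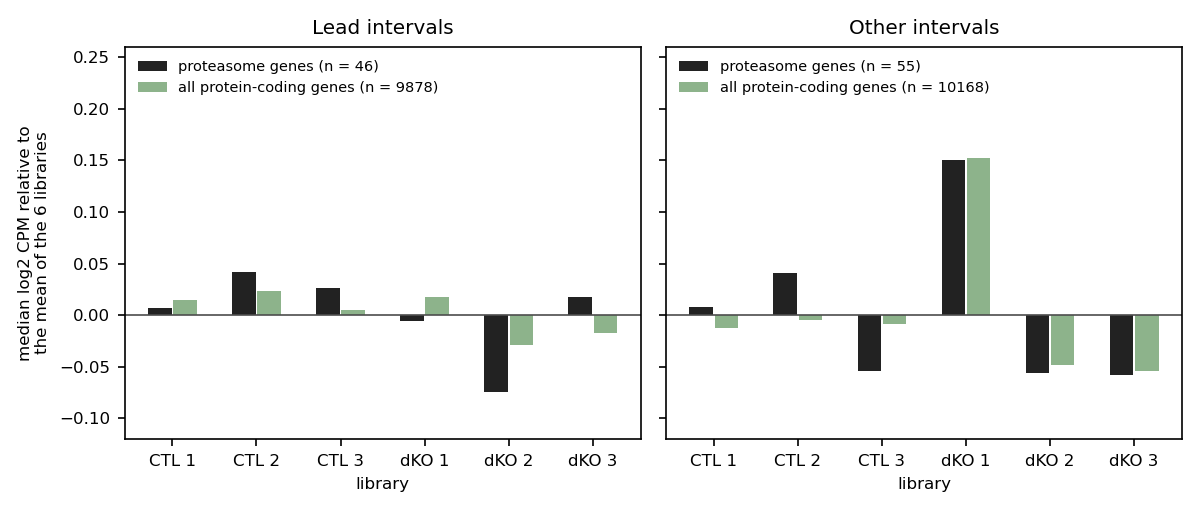
Median log2 CPM of lead and other intervals in each library relative to the mean of the 6 libraries, for proteasome genes (black) and all protein-coding genes (green). In the intervals that are not lead, dKO replicate 1 stands at 0.15 in both sets, whereas in the lead intervals it stands at -0.0055 and 0.018.

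The rest of the pathway was read from a list of 30 genes: ubiquitin genes, activating enzymes, shuttle receptors, proteasome-bound factors, the regulators Nfe2l1 and Nfe2l2, and the muscle ubiquitin ligases Fbxo32, Trim63 and Fbxo30. It also holds Adrm1, Shfm1 and Pomp, subunit or assembly genes of the proteasome whose names do not match the prefixes. Of the 30 genes, 29 were found in the annotation by name, Paaf1 not being among them, and each had an interval, 78 in all. None was below 0.05 after adjustment, 2 were higher (background 2.64%) and 0 were lower (background 2.31%) at an unadjusted p under 0.05 in edgeR. Ubb, a polyubiquitin gene, had in Peak_24689 110, 93.8 and 72.2 RPKM in CTL against 149, 135 and 113 in the dKO-labelled libraries (log2 fold change 0.50, SE 0.21, edgeR, unadjusted p = 0.0281, adjusted p = 0.972). Those groups do not overlap. Zfand5, which promotes proteasome activity, had in Peak_38289 151, 108 and 111 RPKM against 234, 165 and 143 (log2 fold change 0.54, SE 0.25, edgeR, unadjusted p = 0.038), where 143 lies below the highest CTL library. Neither is the lead interval of its gene, and the lead intervals had log2 fold changes of 0.054 in Ubb and -0.034 in Zfand5. Over the list 55 of 78 intervals were positive, with a median log2 fold change of 0.096 against 0.012 for all intervals. Without dKO replicate 1 the median was -0.029 and 33 of 78 were positive, so the direction of the list rests on that library. Over all intervals at protein-coding promoters, 52.7% were positive, and the median went from 0.011 to -0.041 without it.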

How the data were processed

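The data are ATAC-seq counts of 6 libraries. The authors trimmed reads with Trimmomatic, aligned them to mm9 with Bowtie2, removed duplicates with Picard, shifted the Tn5 ends, called peaks with MACS2, left out mitochondrial and blacklisted regions and merged peaks. They deposited, for each merged interval, the counts of fragment ends per library, not normalized, beside columns of their own DESeq2 comparison, which were not used here. No other per-sample column was left unused. Interval coordinates are given as deposited. The intervals are peaks of these same libraries, and fragment ends in overlapping peaks are counted in each.

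The members and gene lists were chosen with earlier results of these data known. Counts were tested with edgeR 4.0.16 (TMM factors, robust quasi-likelihood test, CTL against dKO-labelled, all 39768 intervals, no covariate, no filter, Benjamini-Hochberg adjustment) in R 4.3.3. A simulation with known changes was used to check the script. Levels are RPKM and library medians log2(CPM + 0.5). Values in every library are given for the members with the 4 smallest unadjusted p in each direction, for the most and least accessible lead interval of each group of subunits (by the mean RPKM of the 6 libraries), for the catalytic beta subunits, and for intervals of the pathway list with an unadjusted p under 0.05. Other values were chosen after they were seen. Sequences and start sites are from NCBIM37 with GENCODE vM1. Alternatives were DESeq2 1.42.0, limma voom 3.58.1, other size factors, filters on low counts, a replicate block, each library left out, other distances to the TSS and other motif windows. The motif letters CGGAAG were added after seeing the data. Depth was 3520008 to 6117245 counts per library, and the confidence intervals given hold both counting error and the spread between libraries.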

Additional observations from a re-analysis of the deposited data

How the results depend on the processing

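No member passed after adjustment under any of the alternatives. The count at an unadjusted p under 0.05, which was 3, was 1 with DESeq2, 2 with limma voom and 1 to 5 when a library was left out. Over all 39768 intervals the count in those fits was 756, 1996 and 1265 to 3163. The 5 without CTL replicate 2 added the upstream intervals of Psmd9 and Psmd6. The median log2 fold change ranged from -0.043 to 0.045 when a library was left out, and 8 members had groups that do not overlap under each of the 3 scalings. With a replicate block the count was 2, beside 1756 of all intervals, and the median of members 0.011. The correlations of same-numbered libraries were -0.0988, -0.0537 and -0.0331. The best partners of CTL replicates 1, 2 and 3 were dKO replicates 3, 1 and 2, so the numbers were not taken as pairs.

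Of 26 named intervals, 13 kept the sign of their log2 fold change in 13 alternative fits, and 37 of 338 values changed sign. Psme2 (Peak_30789) was at 0.00046 with median-of-ratios factors, 0.00025 with limma voom and 0.00034 with at least 10 counts in every library. Psmd11 (Peak_25375) was at 0.0024, 0.0081 and 0.0032 under the same settings and at 0.0021 with DESeq2. Psmf1 (Peak_4606) was at -0.0041 with limma voom and -0.018 with a replicate block. Leaving out a library gave -0.060 to 0.54 for Psma3 (Peak_27590), -0.16 to 0.098 for Psme2, -0.17 to 0.15 for Psmf1, -0.13 to 0.070 for Psma1, -0.11 to 0.13 for Psmc1, -0.14 to 0.051 for Psmd4, -0.040 to 0.050 for Psmb3, -0.035 to 0.16 for Psmb4, -0.035 to 0.25 for Psmb9, -0.076 to 0.062 for Psmd11, -0.016 to 0.070 for Psmc3ip, -0.0089 to 0.24 for Psmb5 and -0.024 to 0.17 for Psmb6. Without a change of sign, the values moved by over 1.5 times in Psma3 (Peak_27591, 0.0083 to 0.28), Psmb1 (0.12 to 0.35), Psmb7 (-0.48 to -0.20), Psmd2 (-0.25 to -0.11), Psmd5 (-0.16 to -0.067), Psmd7 (0.058 to 0.18) and Psmg3 (-0.35 to -0.017). The cause was not tested.

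The share of promoters was 2.17% for TATAAA and 4.35% for GCGCATGC in the lead interval itself, and that of core particle promoters with the ETS letters was 31.25% for CGGAAG, which is shorter. With 3 libraries a group and a median of 102 counts, smaller changes than the confidence intervals given could not be detected. Those confidence intervals are not adjusted for the number of tests, so larger changes could also be missed after adjustment. The log2 fold change of Psmd9 (Peak_11535) had a 95% confidence interval of -1.22 to -0.22, yet its adjusted p in edgeR was 0.972.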
